A study of Mus musculus with 24 samples.

Results

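The T cell receptor variable (V) genes described here are the Trav and Trbv genes of mouse CD4+ T cells, which supply the variable part of the alpha and of the beta chain. Members were all rows of a raw count table whose mouse symbol begins with Trav or Trbv and whose counts, summed over 24 libraries, came to at least 50. This rule took 89 of 163 such rows and of 54446 rows in the whole table, namely 66 of 128 Trav rows and 23 of 35 Trbv rows. The members were thus chosen by their summed counts, so their levels are given as a description, and no level is set against the rows that were left out. Just inside the threshold lay Trav13n-3 with 55 counts, Trav11n with 62 and Trav6-3 with 69. Just outside it lay Trav13d-1 with 49, Trav20 with 36 and Trbv22 with 33 counts.

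Each library held mRNA of CD4+ T cells from the spleen of 1 mouse on the C57BL6 background, either wild type (WT, mice 1, 3 and 4) or Aim2-/- (mice 1, 2 and 4), which are deficient in the cytosolic DNA sensor AIM2. Cells of each mouse were left unstimulated (0 h) or were stimulated with anti-CD3/CD28 antibodies, which engage the receptor and its co-receptor, for 3, 6 or 24 h, giving 8 groups of 3 libraries. The design asks how receptor stimulation and loss of AIM2 alter gene expression, and the labels state neither age nor sex. Per the methods of the study the Aim2-/- line was bought on a C57BL/6 background and bred in the same facility as the WT mice.

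Alpha and beta chain genes are assembled in the thymus by recombination. In each developing T cell 1 V segment is joined to a joining (J) segment, with a diversity (D) segment between them in the beta chain, and the product is spliced to a constant segment (Trac, Trbc1 or Trbc2). A mature T cell therefore transcribes mainly the V gene it has joined, and the V reads of a T cell population reflect how many cells carry each V gene and how much receptor mRNA those cells hold. In such bulk samples fewer cells of a type and less RNA per cell cannot be told apart. The V domain also carries loops that touch peptide and MHC, and the joined edge of the V segment forms part of the most variable loop.

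Libraries held 19715161 to 21627018 counts. Of all counts, 0.00657% were assigned to the Trav members (547 to 2130 per library) and 0.0305% to the Trbv members (3702 to 8417 per library), so single Trav genes rest on few reads. CD4 T cell markers (4 genes) summed to 2395 to 2665 CPM (reads of a gene scaled to a common library total, on library sizes scaled by the trimmed mean of M-values, TMM) at 0 h and CD8 T cell markers (2 genes) to 8.12 to 11.4 CPM. The B cell list (7 genes) summed to 711 to 1711 CPM in WT and to 8241 to 12423 CPM in Aim2-/- libraries at 0 h, and the myeloid list (7 genes) to 27.2 to 51.6 and 95.8 to 349 CPM. The libraries of the mouse labelled WT 1 went against that label for the targeted gene. Aim2 was at 21.5 CPM there at 0 h, against 75 and 67.5 CPM in WT 3 and WT 4 and 15.7 to 20.1 CPM in the Aim2-/- mice, and WT 1 also lay nearer to the Aim2-/- mice at 3, 6 and 24 h. Labels were kept. Values between genotypes include that mouse unless its removal is named, and calls, sums and counts of genes without overlap are also given without it.

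The gene sequences set what a count can tell. The Trav locus on chromosome 14 contains a stretch that is present in several copies, whose genes carry a d or an n in the symbol, so a Trav gene can have a near-identical d-copy and n-copy. The 4 sets shown next are from the GENCODE transcripts of GRCm38, all on the plus strand and all within the last coding exon, because the usage and genotype results turn on them. Capitals mark positions at which the 3 genes of a set do not all have the same base. The 3 Trbv13 genes, the most used beta chain family, are shown by the last 90 bases of the exon, up to the edge that is joined, and differ at 22 of these positions.
Trbv13-1, chr6:41116379-41116468: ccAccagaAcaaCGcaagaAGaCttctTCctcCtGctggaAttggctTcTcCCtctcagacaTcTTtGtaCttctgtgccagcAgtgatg
Trbv13-2, chr6:41121743-41121832: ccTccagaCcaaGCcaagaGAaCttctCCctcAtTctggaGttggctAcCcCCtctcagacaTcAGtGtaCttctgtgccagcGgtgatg
Trbv13-3, chr6:41130496-41130585: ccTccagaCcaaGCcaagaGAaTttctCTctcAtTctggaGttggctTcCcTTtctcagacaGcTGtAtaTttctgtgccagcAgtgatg
The Trav7-4 set, which holds the gene with the most genotype calls, differs at 6 of 291 positions.
Trav7-4, chr14:53461447-53461737: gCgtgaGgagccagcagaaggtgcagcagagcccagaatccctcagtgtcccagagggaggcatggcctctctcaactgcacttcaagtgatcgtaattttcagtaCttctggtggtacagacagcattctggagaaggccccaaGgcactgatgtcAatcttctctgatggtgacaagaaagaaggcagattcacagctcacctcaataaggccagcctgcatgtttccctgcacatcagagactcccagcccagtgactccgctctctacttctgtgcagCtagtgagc
Trav7d-4, chr14:52770101-52770391: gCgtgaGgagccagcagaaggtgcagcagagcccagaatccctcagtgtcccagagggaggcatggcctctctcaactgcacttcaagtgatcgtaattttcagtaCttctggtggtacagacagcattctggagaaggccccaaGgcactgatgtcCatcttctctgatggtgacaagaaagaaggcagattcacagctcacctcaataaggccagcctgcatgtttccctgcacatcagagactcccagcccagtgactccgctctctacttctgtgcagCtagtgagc
Trav7n-4, chr14:53091584-53091874: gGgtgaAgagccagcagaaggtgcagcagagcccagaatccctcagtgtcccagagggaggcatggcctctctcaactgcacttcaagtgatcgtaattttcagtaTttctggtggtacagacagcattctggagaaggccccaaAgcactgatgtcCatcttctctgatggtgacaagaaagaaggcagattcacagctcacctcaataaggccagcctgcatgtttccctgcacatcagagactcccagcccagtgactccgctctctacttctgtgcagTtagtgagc
The Trav10 set holds the other gene that was called relative to summed Trav counts, and differs at 5 of 214 positions.
Trav10, chr14:53505996-53506209: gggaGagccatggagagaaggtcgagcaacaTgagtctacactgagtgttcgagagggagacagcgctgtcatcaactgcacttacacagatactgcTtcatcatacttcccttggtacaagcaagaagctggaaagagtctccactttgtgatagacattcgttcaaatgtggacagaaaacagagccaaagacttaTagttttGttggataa
Trav10d, chr14:52811206-52811419: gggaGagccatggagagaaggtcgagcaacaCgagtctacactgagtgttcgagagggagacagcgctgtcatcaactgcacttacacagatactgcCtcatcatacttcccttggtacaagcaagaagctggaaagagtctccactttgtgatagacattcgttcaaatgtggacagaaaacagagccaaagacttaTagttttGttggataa
Trav10n, chr14:53122320-53122533: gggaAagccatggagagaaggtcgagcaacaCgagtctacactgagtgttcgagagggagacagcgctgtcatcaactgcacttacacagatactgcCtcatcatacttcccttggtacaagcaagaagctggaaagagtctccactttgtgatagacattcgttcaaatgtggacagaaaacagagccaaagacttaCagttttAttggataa
The Trav14-3 set holds the alpha chain gene with the highest mean usage, and differs at 11 of 256 positions.
Trav14-3, chr14:53763428-53763683: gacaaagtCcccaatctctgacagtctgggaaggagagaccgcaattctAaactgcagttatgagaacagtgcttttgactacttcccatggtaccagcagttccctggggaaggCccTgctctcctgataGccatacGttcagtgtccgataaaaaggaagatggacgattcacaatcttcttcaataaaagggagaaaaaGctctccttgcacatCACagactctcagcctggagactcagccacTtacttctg
Trav14d-3-dv8, chr14:53078779-53079034: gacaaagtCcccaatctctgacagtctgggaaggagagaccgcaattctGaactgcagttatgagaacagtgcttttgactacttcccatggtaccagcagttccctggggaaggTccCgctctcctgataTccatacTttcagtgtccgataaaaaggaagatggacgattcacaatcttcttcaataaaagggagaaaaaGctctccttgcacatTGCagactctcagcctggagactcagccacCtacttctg
Trav14n-3, chr14:53370309-53370564: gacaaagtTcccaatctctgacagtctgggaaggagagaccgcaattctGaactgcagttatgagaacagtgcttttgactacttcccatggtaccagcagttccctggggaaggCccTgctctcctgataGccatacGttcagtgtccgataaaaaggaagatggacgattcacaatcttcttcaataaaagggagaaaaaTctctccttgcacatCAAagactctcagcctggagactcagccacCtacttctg

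Over the last coding exon, Trav7-4 and Trav7d-4 differed at 1 of 292 aligned bases, and Trav7n-4 differed from them at 6 and 5. Trav10 and Trav10d differed at 2 of 291 bases, and Trav10n differed from them at 5 and 3. The Trbv13 genes were farther apart, with 33 differences of 291 between Trbv13-1 and Trbv13-2 (88.7% identity) and 24 between Trbv13-2 and Trbv13-3. The general methods of the study, whose RNA-seq concerns naive and Treg-differentiated cells, give single-ended reads of 51 bases, and the read length of these libraries is not given in the sources used here. With that length assumed, each transcript was cut into 51-base windows and each window was looked up in all other annotated genes. Of the 128 Trav rows, 42 had no window of their own, and 39 of these 42 held no count in any library. Every Trbv member had windows of its own, and among the Trav members the exception was Trav13n-3. Trav11 and Trav11d, whose alpha chain marks natural killer T cells, had no window of their own and no count, so that chain was not readable here.

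At rest, the beta chain was dominated by the Trbv13 family. Usage was taken as a gene's share of the counts per base of annotated exon within its locus. Trbv13-2 took 20.9, 23.3 and 23.3% of Trbv in WT 1, 3 and 4 and 25.6, 22.98 and 25.2% in Aim2-/- 1, 2 and 4, a mean of 23.5% ± 1.71 (SD, n = 6). It was the highest in every mouse, and the next gene, Trbv13-1, had 9.21% ± 0.76 (SD, n = 6). Trbv16 (6.85% ± 0.55), Trbv15 (6.50% ± 0.87), Trbv13-3 (6.32% ± 0.52), Trbv12-2 (5.68% ± 0.24), Trbv31 (5.03% ± 0.48) and Trbv3 (4.91% ± 0.66) followed, and the ranges of neighbours in this order overlapped. The first 8 genes held 68.1% of Trbv usage. At the low end Trbv5 and Trbv21 had 0.032 and 0.060%. Without the division by length Trbv13-2 had 20.7% and was still first.

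**Figure D1:**
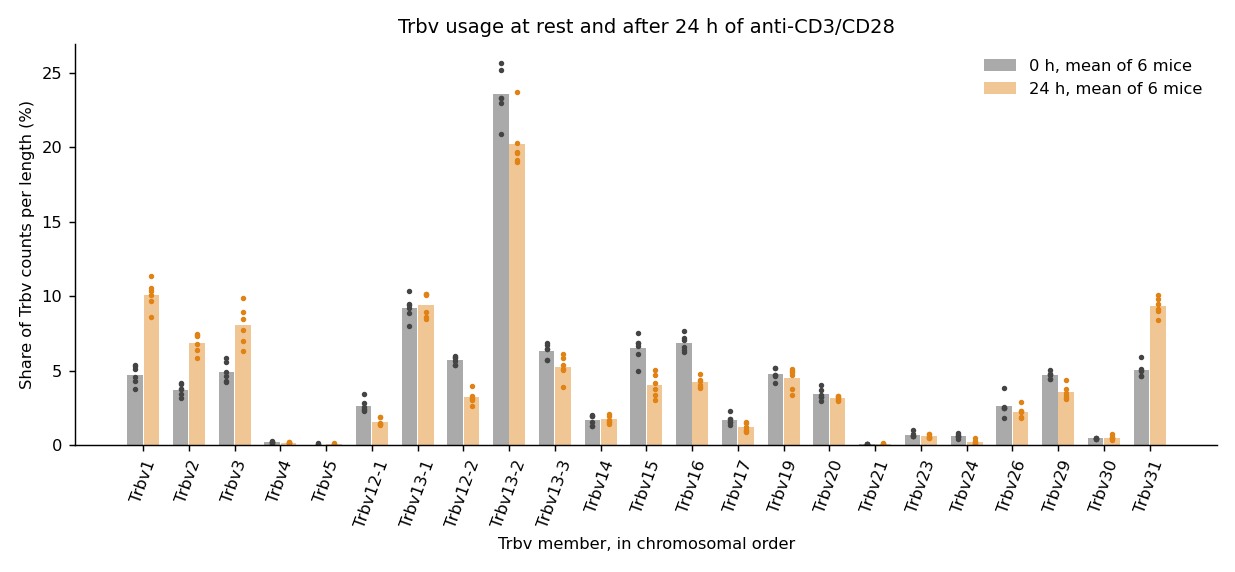
Trbv usage at 0 h and at 24 h of stimulation, as the share (%) of Trbv counts per base of exon on the y axis, with the 23 Trbv members in chromosomal order on the x axis. Bars are means of 6 mice and points are single mice. Trbv13-2 is highest at both times, at 23.5 and 20.2%, while Trbv1, Trbv2, Trbv3 and Trbv31 have a larger share at 24 h in all 6 mice.

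Alpha chain usage at rest was flatter. Trav14n-3 had the highest mean, at 4.60% ± 1.64 (SD, n = 6) of Trav, and the first 8 genes together held 28.7%. It was first in WT 1, Aim2-/- 2 and Aim2-/- 4. In WT 3 and WT 4 it had 2.74 and 2.78% and Trav14d-3-dv8 was first with 6.29 and 5.32%, and in Aim2-/- 1 Trav4-4-dv10 was first with 6.55%. They were Trav14n-3, Trav14-1 (3.58% ± 0.83), Trav17 (3.51% ± 0.51), Trav4-4-dv10 (3.48% ± 1.79), Trav14-3 (3.42% ± 0.44), Trav7-5 (3.38% ± 1.06), Trav13-1 (3.36% ± 1.33) and Trav14d-3-dv8 (3.33% ± 1.95), where dv marks genes that can also join segments of the delta chain. None of these neighbours was separated by more than its spread between mice. By family, Trav14 took 18.2% ± 1.25 of Trav counts, Trav7 11.6% ± 1.24 and Trav6 10.02% ± 1.87 (SD, n = 6). Trav1, which encodes the alpha chain of mucosal-associated invariant T cells, was at 1.06 CPM at 0 h.

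Mice differed more in alpha than in beta chain usage. The coefficient of variation between the 6 mice at 0 h had a median of 43.0% over the Trav members and 13.3% over the Trbv members. Counting error alone would give 24.5 and 5.48%. The order of the first Trav genes also depended on how copies were weighted. With counts divided by the number of a gene's own 51-base windows, 5 of the first 8 Trav genes were still among the first 8, while the same division left Trbv13-2 in first place.

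In all, 4 annotated pseudogenes passed the count threshold. Trbv24 was at 2.17 CPM ± 0.56 (SD, n = 6) at 0 h, or 0.62% of Trbv usage. In the alpha locus Trav8-2, Trav9n-1 and Trav11n had 0.82, 0.33 and 0.24% of Trav usage.

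After stimulation, Trbv mRNA was lower from 3 h on, whereas Trav mRNA was lower at 24 h. Summed Trbv levels at 0 h were 387, 388 and 427 CPM in WT 1, 3 and 4 and 357, 399 and 374 CPM in Aim2-/- 1, 2 and 4. At 24 h they were 259, 278 and 256 CPM in WT and 181, 275 and 235 CPM in Aim2-/- mice, so that no 24 h library overlapped the 0 h libraries. The mean change of a mouse was -22.5% at 3 h, -28.2% at 6 h and -36.9% at 24 h, lower in 6 of 6 mice each time. An exact sign-flip test over the 6 mice gave p = 0.031 for each of these, the smallest it can give, and 0.1125 after Benjamini-Hochberg adjustment over 36 such tests.

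Summed Trav levels lay between 62.2 and 84.1 CPM at 0 h and between 26.8 and 52.7 CPM at 24 h. The change was -40.4% at 24 h (6 of 6 mice lower, exact p = 0.031, adjusted p = 0.1125). At 3 h it was 15.7% (5 of 6 mice higher, exact p = 0.09375), and at 6 h 3 mice were higher and 3 lower.

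**Figure D2:**
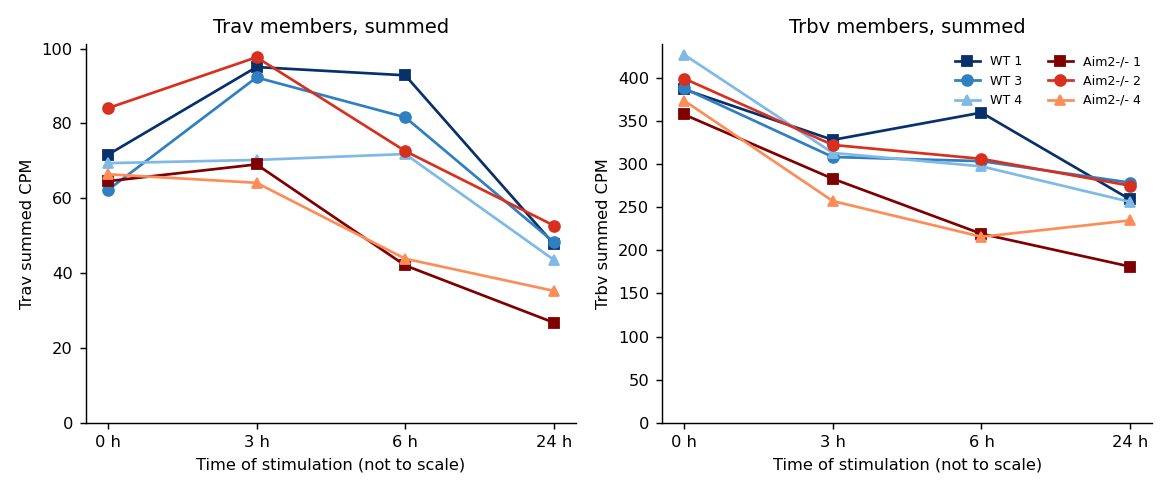
Summed CPM of the Trav members (left) and the Trbv members (right) on linear y axes from 0, by time of anti-CD3/CD28 on the x axis (not to scale), 1 line per mouse. Trbv sums start between 357 and 427 CPM and end between 181 and 278 CPM. Trav sums at 6 h are above their 0 h value in the 3 WT mice and below it in the 3 Aim2-/- mice.

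The constant segments followed the V sums only in part. Trac, the constant part of the alpha chain, rose by 0.31 (SE 0.09, adjusted p = 0.0060) on the log2 scale at 3 h and by 0.38 at 6 h (adjusted p = 0.00069), and decreased by 0.46 at 24 h (adjusted p = 5.4e-05, edgeR quasi-likelihood test with Benjamini-Hochberg adjustment). Trbc2 rose by 0.30 at 6 h (SE 0.09, adjusted p = 0.0062), and at 24 h its log2 change was -0.01 (adjusted p = 0.892). Trbc1 lay at 331 to 425 CPM at 0 h, 268 to 353 CPM at 3 h and 276 to 346 CPM at 24 h. At 24 h Trbc1 was lower than at 0 h in each mouse but Aim2-/- 1. The sum of Trbc1 and Trbc2 was lower at 3 h than at 0 h in each mouse, as the Trbv sum was. Relative to the constant segments, Trbv counts went from 31.6 to 39.7 per 100 Trbc counts at 0 h to 14.4 to 32.6 at 6 h and 15.2 to 30.1 at 24 h. Each mouse was lower at 3, 6 and 24 h than at 0 h, with mean changes of -10.3, -39.0 and -32.4% (exact sign-flip p = 0.031 each, not adjusted, n = 6). Trav per 100 Trac changed by -28.1% at 6 h and was lower in 6 of 6 mice (exact p = 0.031). At 3 h the change was -5.81%, with 3 mice lower and 3 higher (exact p = 0.4375), and at 24 h -18.0%, with 5 of 6 mice lower (exact p = 0.0625). J segments are annotated as genes of their own, and summed Trbj levels were also lower in 6 of 6 mice at each time, with a mean change of -45.03% at 24 h (exact p = 0.031).

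The recombination genes and CD3 chains set the frame for these levels. Rag1, Rag2 and Ptcra, which act during receptor assembly in the thymus, had a mean of at most 0.102 CPM at each time. Dntt, the enzyme that adds bases at the joints, fell from 3.49 CPM at 0 h to 0.34 CPM at 24 h (log2 change -3.30, SE 0.30). Of the 4 CD3 and zeta chain genes, which carry the signal of the receptor, all 4 were called lower at 24 h (log2 changes -0.29 for Cd3d, -0.39 for Cd3e, -0.67 for Cd3g and -0.59 for Cd247), and Cd247 was called higher at 3 h (0.32, adjusted p = 0.0047). The edgeR test and adjustment were those named above.

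Gene by gene, 78 members (57 Trav and 21 Trbv) had enough counts to be tested. At 3 h, 9 of 21 Trbv genes and no Trav gene were called lower, against a background of 21.9% lower (45.5% in either direction) among all 15325 genes tested, and 3 Trav genes were called higher (Trav7n-4, Trav3-4 and Trav8-2, background 23.6% higher). At 6 h the calls were 12 Trbv genes, each of them lower (background 29.1% lower and 62.5% in either direction). At 24 h, 26 Trav and 15 Trbv genes were called lower (background 38.9%) and 1 gene, Trbv1, higher (background 40.4%, and 79.4% in either direction). The 3 stimulation comparisons share their 0 h libraries. A fit with the mouse as a block, which uses the pairing of the 4 libraries of a mouse, called 21 members at 3 h and 19 at 6 h in place of 12 and 12. The shares of all genes called in that fit are not given here. The median log2 change at 24 h was -0.75 over the Trav and -0.93 over the Trbv members tested, against -0.001 over all genes.

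The Trbv genes ranged widely in their 24 h change. Trbv24, the pseudogene, had the steepest fall. Its levels were 2.85, 2.22 and 2.64 CPM in WT and 1.84, 2.22 and 1.28 CPM in Aim2-/- mice at 0 h, and 0.35, 0.21 and 0.62 CPM in WT and 0.29, 1.06 and 0.21 CPM in Aim2-/- mice at 24 h. The groups of 6 did not overlap, and the log2 change was -2.23 (SE 0.41, adjusted p = 4.7e-05). The share of Trbv counts in Trbv24 was lower in 6 of 6 mice at 3, 6 and 24 h, with mean changes of -32.0, -64.8 and -71.7% (exact p = 0.031 each).

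Trbv12-2 encodes a beta chain V segment of the Trbv12 family, and it fell in every comparison. It lay at 20.6 to 24.0 CPM in the 6 mice at 0 h, 10.1 to 15.0 CPM at 3 h, 8.81 to 12.7 CPM at 6 h and 6.94 to 8.41 CPM at 24 h. No 0 h library overlapped a stimulated one. Its log2 changes at 3 and 6 h were -0.77 and -1.09, and the 24 h change was -1.55 (adjusted p = 4.8e-11), each with an SE of 0.11. Its neighbour in the family, Trbv12-1, fell by 1.47 on the log2 scale at 24 h (SE 0.18, adjusted p = 2.3e-07).

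Trbv13-2, the most used gene and a beta chain segment common among natural killer T cells, went from 70.3 to 87.6 CPM at 0 h to 37.2 to 47.3 CPM at 24 h (log2 change -0.93, SE 0.08, adjusted p = 9.1e-10). Trbv29, another segment paired with the natural killer T cell alpha chain, fell by 1.13 (SE 0.08, adjusted p = 3.4e-11). Trbv1, also paired with that alpha chain, went the other way at 24 h (log2 change 0.40, adjusted p = 0.0213). The beta chain segments common among natural killer T cells thus did not all fall, and natural killer T cells were not measured apart. A list of 2 genes for natural killer T and other innate-like T cells (Zbtb16 and Klrb1c) was lower at 24 h. It summed to 34.5 to 82.8 CPM in WT and 39.9 to 60.4 CPM in Aim2-/- mice at 0 h. At 24 h it was at 4.10 to 6.31 and 3.22 to 6.95 CPM. Its part in the V gene changes was not tested. Trbv15 and Trbv16 fell by 1.39 (SE 0.18) and 1.40 (SE 0.13). Among alpha chain genes Trav19 fell by 1.73 (SE 0.32, adjusted p = 4.6e-05), from 1.11 to 3.05 CPM at 0 h to 0.29 to 1.08 CPM at 24 h. Trav1 fell by 1.10 (SE 0.32, adjusted p = 0.0040). All these p-values are from the edgeR test with Benjamini-Hochberg adjustment over all genes.

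Not all beta chain genes followed the locus sum. Trbv1 had 17.7, 21.4 and 24.6 CPM in WT and 14.6, 22.7 and 18.4 CPM in Aim2-/- mice at 0 h. At 24 h it had 27.8, 32.5 and 25.8 CPM in WT and 16.5, 30.3 and 24.6 CPM in Aim2-/- mice, higher in each mouse than at 0 h (log2 change 0.40, SE 0.15, edgeR adjusted p = 0.0213). With RLE size factors its change was 0.34 and was no longer called (adjusted p = 0.0532). Trbv2 and Trbv31 had log2 changes of 0.19 each, with adjusted p = 0.236 and 0.145. For Trbv3 it was 0.01 (SE 0.12, adjusted p = 0.968), and its sign turned under other size factors.

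To compare usage rather than level, the whole table was fitted again with library sizes set to the summed Trbv counts. On this scale 56.5% of all genes were called higher and 20.2% lower at 24 h, so the scale orders the Trbv genes among themselves only. At 24 h Trbv1 was higher by 1.05 (SE 0.11), Trbv2 by 0.84 (SE 0.10), Trbv31 by 0.84 (SE 0.09) and Trbv3 by 0.66 (SE 0.13), each with an edgeR adjusted p of 7.8e-05 or less. Lower were Trbv24, Trbv12-2, Trbv12-1, Trbv16, Trbv15, Trbv17, Trbv29, Trbv13-3 and Trbv13-2, with log2 changes from -1.60 to -0.27. The same 4 genes were called higher at 6 h, with 5 genes lower (Trbv24, Trbv12-2, Trbv12-1, Trbv15 and Trbv13-2), against 53.3% of all genes called higher and 10.7% lower. At 3 h Trbv1 and Trbv2 were called higher and Trbv12-2 lower, against 43.4 and 5.59% of all genes.

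In shares, Trbv1 went from 4.72% ± 0.63 to 10.1% ± 0.92, Trbv31 from 5.03% ± 0.48 to 9.31% ± 0.60, Trbv3 from 4.91% ± 0.66 to 8.03% ± 1.30 and Trbv2 from 3.72% ± 0.38 to 6.86% ± 0.65 (SD, n = 6), higher at 24 h in 6 of 6 mice for each. Trbv13-2 went from 23.5% ± 1.71 to 20.2% ± 1.76, lower in 6 of 6 mice. Summed, the 4 genes held 18.4% ± 1.22 of Trbv usage at rest. Their share was 22.96% ± 1.46 after 3 h of stimulation, 27.6% ± 2.34 after 6 h and 34.3% ± 2.64 after 24 h. These 4 were picked for their rise, so the sum is a description.

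**Figure D3:**
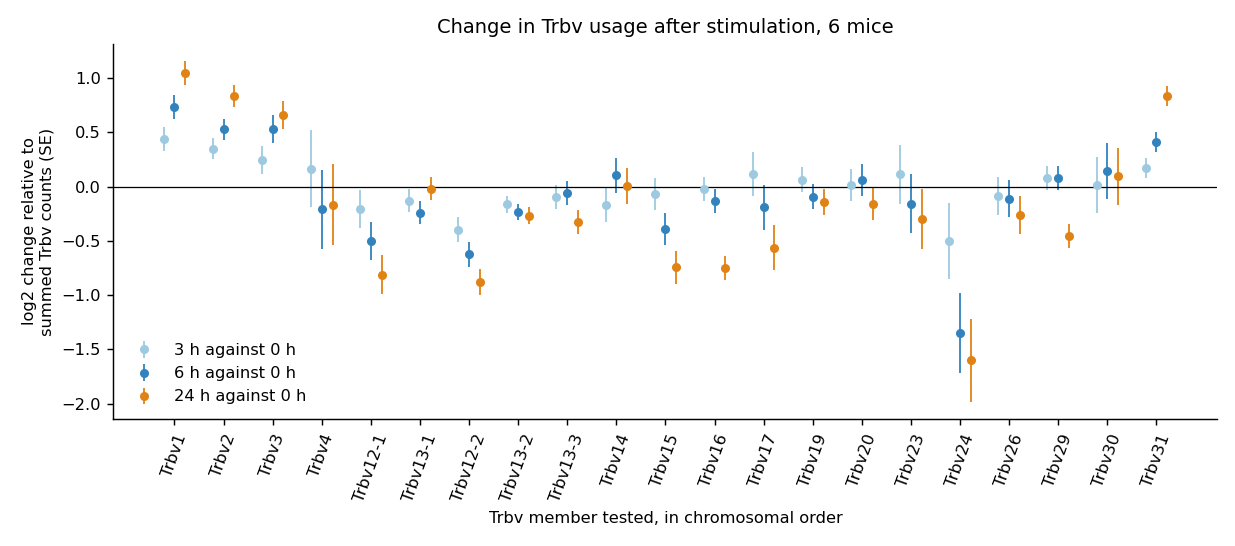
Change in Trbv usage at 3, 6 and 24 h against 0 h, as the log2 change relative to the summed Trbv counts (y axis, point with SE, 6 mice), for the 21 Trbv members tested in chromosomal order (x axis). Trbv1, Trbv2, Trbv3 and Trbv31, at both ends of the order, lie at 0.66 to 1.05 at 24 h, and Trbv24 lies at -1.60.

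Trbv1, Trbv2 and Trbv3 are the first 3 of the 23 members along chromosome 6 (from 40891229 to 41048828), and Trbv31 is the last (41557691 to 41558452), on the minus strand beyond the constant genes. Trbv31 is the member that joins by inversion, whereas the other 22 are on the plus strand. Across the 21 genes tested, the 24 h usage change had a Spearman correlation of 0.25 with GC content and 0.29 with exon length. At 3 h these were -0.09 and 0.48, and at 6 h 0.12 and 0.26. Trbv1, Trbv2, Trbv3 and Trbv31 have 417, 560, 455 and 418 exon bases. Trbv19 has 566 and changed by -0.14 at 24 h, and the other genes tested have 335 to 398. The part of length in the usage change was not tested. The genes tested share libraries and depth, and the values are a description.

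In the alpha locus, usage was fitted relative to summed Trav counts. No Trav gene was called at 3 h, where 7.03% of all genes were called higher and 17.3% lower, or at 6 h (28.5 and 15.6%). At 24 h, against 56% of all genes higher and 16.6% lower, Trav14-2 was called higher (0.72, SE 0.31, edgeR adjusted p = 0.0404), and Trav10 (-0.60, SE 0.27, adjusted p = 0.0483) and Trav19 (-1.04, SE 0.33, adjusted p = 0.0062) lower. With most genes called on this scale, an adjustment over all genes is lenient for single Trav genes. The effective number of Trav genes, the exponential of the Shannon entropy of their counts, was 45.8 to 50.6 at 0 h and 41.7 to 46.8 at 24 h. For Trbv genes it was 14.1 to 15.8 at 0 h and 13.5 to 14.1 at 24 h. This number falls with fewer counts, and Trav counts went from 1203 to 1707 per library at 0 h to 547 to 1046 at 24 h. Depth was not matched, so no test is given.

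Between genotypes, 1 alpha chain gene stood lower in Aim2-/- cells at 0, 3 and 6 h, and most V genes had lower values at 6 h. Trav7n-4 had 0.95, 1.55 and 1.22 CPM in WT 1, 3 and 4 and 0.63, 0.59 and 0.39 CPM in Aim2-/- 1, 2 and 4 at 0 h. At 3 h it had 3.52, 2.46 and 2.20 CPM in WT and 0.56, 0.825 and 0.80 CPM in Aim2-/- mice. At 6 h the values were 2.13, 1.61 and 1.27 against 0.35, 0.28 and 0.63 CPM, and at 24 h 0.71, 0.51 and 0.92 against 0.29, 0.25 and 0.21 CPM. The genotypes did not overlap at any of the 4 times. Each time uses the same 3 mice per genotype, so the 4 times are not independent observations. The share of all genes without overlap at all 4 times is not given here.

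By edgeR, Trav7n-4 differed by -1.19 on the log2 scale in resting cells (SE 0.35, adjusted p = 0.0498). The difference after 3 h was -1.90 with an SE of 0.33 (adjusted p = 0.0186), and after 6 h it was -1.99 with an SE of 0.35 (adjusted p = 0.0048). After 24 h it was -1.49 with an SE of 0.39 and missed the threshold (adjusted p = 0.0691). It was the 1 member called at 0 h (background 5.23% of all genes, 3.24% higher and 1.99% lower) and at 3 h (background 0.294%, 0.0392% lower). Removing single libraries lost the 0 h call in 17 of 24 cases and the 6 h call in none, and the 0 h call was also lost with library totals alone (adjusted p = 0.0587), with limma-voom (adjusted p = 0.0657) and without a count filter (adjusted p = 0.124). Without the mouse labelled WT 1 the differences at 0, 3 and 6 h were -1.35, -1.67 and -1.77, all called, and 3 members were called at 0 h and 3 at 3 h. The share of all genes called in that refit is not given here, so these counts describe the members only. Over the removal of each of the 6 mice in turn, the Trav7n-4 call was lost in 5 cases at 0 h, in 4 at 3 h and in none at 6 h. An earlier look at these data had named Trav7n-4 and Trav10n, which is why both were on the list of genes to describe.

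At 6 h, 8 members were called lower and none higher, against a background of 15.8% of all genes called, 8.78% higher and 7.01% lower. They were Trav10n (-2.55, SE 0.69), Trav7n-4 (-1.99, SE 0.35), Trav14d-3-dv8 (-1.65, SE 0.41), Trav7-1 (-1.54, SE 0.30), Trav6-1 (-1.36, SE 0.45) and Trav7-6 (-1.29, SE 0.41) among alpha chain genes, and Trbv3 (-0.59, SE 0.17) and Trbv31 (-0.57, SE 0.17) among beta chain genes, with edgeR adjusted p from 0.0048 to 0.0457. The Trav6-1 call was lost with library totals (adjusted p = 0.0529), with limma-voom (adjusted p = 0.0565), without a count filter (adjusted p = 0.0788), and in 12 of 24 removals of a library. The Trav7-6 call was lost in 5 of 24 such removals, and its difference went from -2.12 without Aim2-/- 2 at 6 h to -0.95 without Aim2-/- 4 at 6 h. Trav7-1 had 1.86, 2.04 and 2.14 CPM in WT and 0.66, 0.88 and 0.53 CPM in Aim2-/- mice at 6 h, whereas at 0 h the genotypes overlapped, at 1.62 to 1.76 CPM in WT and 1.13 to 1.74 CPM in Aim2-/- mice. Trav10n had 0.71, 1.41 and 0.93 CPM in WT and 0.13, 0.37 and 0 CPM in Aim2-/- mice. In Trbv3, which started from 22.2 to 25.2 CPM in WT and 17.9 to 25.7 CPM in Aim2-/- mice, the 6 h values were 32.1, 29.3 and 24.3 against 17.6, 20.01 and 19.3 CPM.

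**Figure D4:**
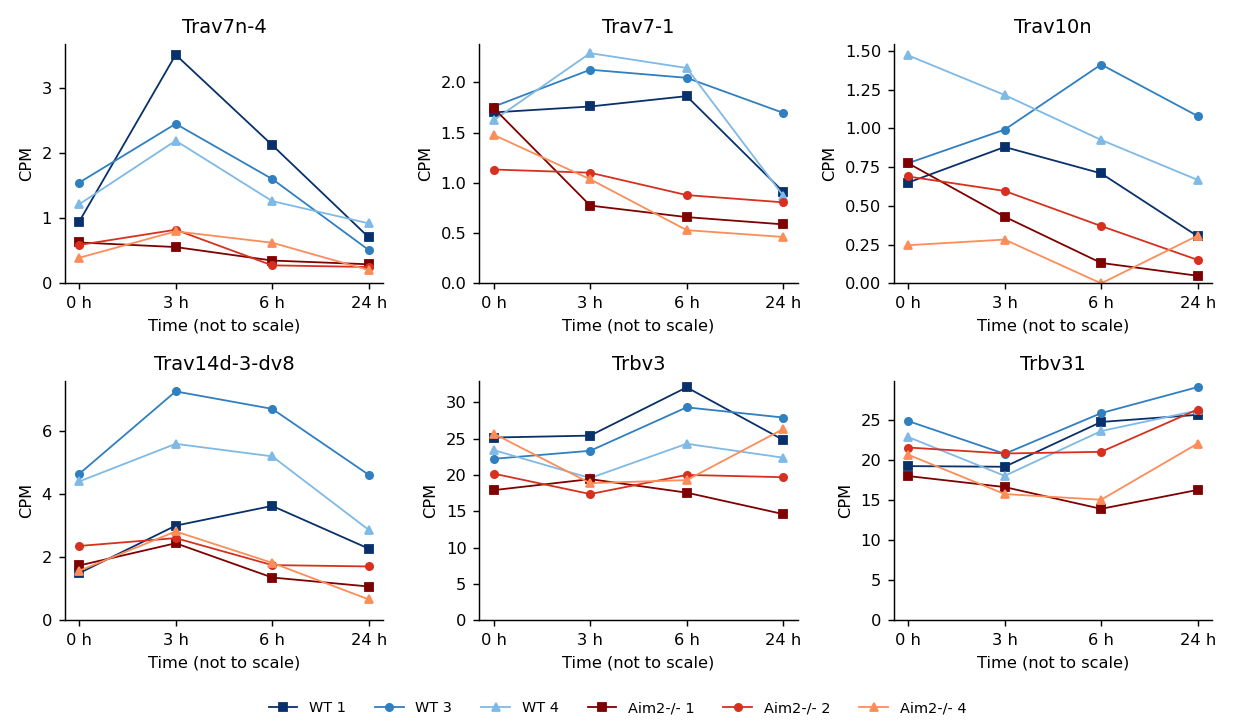
CPM (linear y axes from 0) of 6 members called lower in Aim2-/- cells at 6 h, by time (x axis, not to scale), 1 line per mouse, WT in blue and Aim2-/- in red. For Trav7n-4 the 3 WT mice lie above the 3 Aim2-/- mice at each time. For Trav14d-3-dv8 the mouse labelled WT 1 starts at 1.5 CPM, below WT 3 and WT 4 at 4.65 and 4.41 CPM.

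The 6 h difference was spread over the members. Of the 78 tested, 71 had a negative log2 difference, with medians of -0.72 (Trav) and -0.43 (Trbv) against 0.05 over all genes. In 18 of 57 Trav and 3 of 21 Trbv genes all 3 Aim2-/- libraries lay below all 3 WT libraries, where 17% of all genes tested did so, and no member lay above (18.6% of all genes). At 0 h 6 Trav genes lay above and 4 Trav and 2 Trbv genes below without overlap (14.1 and 14.4% of all genes), at 3 h 2 Trav genes above and 10 Trav and 2 Trbv genes below (7.8 and 7.31%), and at 24 h 1 Trav gene above and 8 Trav genes below (11.1 and 10.2%). Without the mouse labelled WT 1, 21 Trav and 3 Trbv genes lay below and 3 Trav genes above at 6 h (22.8 and 27.1% of all genes). At 0 h 22 Trav genes and 1 Trbv gene then lay above and 14 Trav and 6 Trbv genes below (21.9 and 22.9%), at 3 h 14 Trav genes above and 17 Trav and 4 Trbv genes below (17.9 and 16.2%), and at 24 h 7 Trav genes above and 18 Trav genes below (17.5 and 16.8%). Summed Trav levels at 6 h were 92.8, 81.6 and 71.8 CPM in WT and 42.0, 72.6 and 43.8 CPM in Aim2-/- 1, 2 and 4 (exact permutation p = 0.2, where 0.1 is the smallest that 3 against 3 allow). Summed Trbv levels were 360, 303 and 297 CPM in WT and 219, 306 and 216 CPM in Aim2-/- mice (exact permutation p = 0.3). Mouse Aim2-/- 2 lay closest to the WT mice in both sums. Without the mouse labelled WT 1 the differences in the sums were -23.9 CPM for Trav (exact permutation p = 0.4) and -53.4 CPM for Trbv (exact permutation p = 0.6).

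Leaving out a mouse widely moved the number of members called at 6 h, which was 8 with all mice. It was 24 without Aim2-/- 2, 1 without WT 4 and 2 without WT 3, Aim2-/- 1 or Aim2-/- 4, and without the mouse labelled WT 1 it was 7, with Trav7n-4, Trav7-1, Trav14d-3-dv8 and Trav10n still called. The shares of all genes called in these refits are not given here, so the counts describe the members only. With all genes split into 4 groups by length, the median log2 deviation (from the mean over the 6 libraries of that time) of the longest group minus that of the shortest was 0.20, 0.04 and 0.11 in WT 1, 3 and 4 at 6 h and -0.07, -0.04 and -0.21 in Aim2-/- 1, 2 and 4, and the 2 mice Aim2-/- 1 and 4 had 16.7 and 14.4 Trbv per 100 Trbc counts, the lowest at 6 h. The B cell list summed to 568 to 1576 CPM in WT and 7309 to 11705 CPM in Aim2-/- libraries at 6 h. The part of these in the V gene difference was not tested.

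Relative to summed Trav counts, 52.7% of all genes were called higher and 0.196% lower at 6 h, and 2 members were called lower in Aim2-/- cells. These were Trav7n-4 (-1.23, SE 0.47, adjusted p = 0.0339) and Trav10n (-2.03, SE 0.69, adjusted p = 0.0214). The adjustment ran over all genes, most of them called on this scale, so for these 2 genes it was lenient. Neither was called without the mouse labelled WT 1, at -1.12 (adjusted p = 0.148) and -2.30 (adjusted p = 0.0546). No member was called on this scale at 0 and 3 h, where Trav7n-4 had adjusted p = 0.328 and 0.121. In a fit of mouse sums the same 2 were called on this scale (-1.43, adjusted p = 0.0094, and -1.25, adjusted p = 0.0424). Without the mouse labelled WT 1 they were 2 of 6 members called (-1.38, adjusted p = 0.0418, and -1.50, adjusted p = 0.0286), where 9.06% of all genes were called higher and 0.272% lower. On the level scale the edgeR fit of mouse sums called 0 of 87 members (background 0.0117% of 17163 genes), with Trav7n-4 at -1.71 (SE 0.21, adjusted p = 0.0546), while DESeq2 called 6 and limma-voom 0. In these sums 16 of the 87 members and 4004 of the 17163 genes had an unadjusted edgeR p under 0.05. Without the mouse labelled WT 1 edgeR called 2 members in these sums, and without Aim2-/- 2 it called 16. The shares of all genes called on the level scale in these refits, and by DESeq2 and limma-voom, are not given here.

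At 24 h edgeR called 0 of 78 members between genotypes (background 0.666%, with 0.659% higher and 0.00653% lower), DESeq2 called 2 and limma-voom 0. The number called by edgeR was 2 without the mouse labelled WT 1 and 7 without Aim2-/- 2. An unadjusted edgeR p under 0.05 was found for 9 of the 78 members and for 3134 of all 15325 genes tested. The test of the genotype difference in the response called 0 members at 3, 6 and 24 h with edgeR (backgrounds 0, 0.0261 and 0%), with DESeq2 and with limma-voom. Its unadjusted edgeR p was under 0.05 for 2, 4 and 2 members, and for 653, 2019 and 1825 of all genes. With the mouse as a block this test called 1 member at 6 h. The shares of all genes called by the other tools and in the refits of this paragraph are not given here.

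In the gene fit 7.01% of all genes were called lower in Aim2-/- cells at 6 h. By family the share was near that, with 3 of 36 families tested (8.33%) called lower. These were Trav7 (-0.92, SE 0.24, edgeR adjusted p = 0.0179), with 12.5, 9.30 and 8.47 CPM in WT and 4.79, 7.02 and 4.19 CPM in Aim2-/- mice, and the single-gene families Trbv3 and Trbv31. Without the mouse labelled WT 1 the count was 1, and relative to summed Trav or Trbv counts it was 0. At 0, 3 and 24 h and in mouse sums no family was called by edgeR, while DESeq2 called 1 at 24 h. The Trbv13 family, a large share of Trbv, had log2 differences between -0.22 and -0.02 over the 4 times. The Trav4 family took 8.91% of Trav counts at 0 h in the mouse labelled WT 1, 4.51 and 4.54% in WT 3 and WT 4, and 7.84 to 10.1% in Aim2-/- mice.

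The copies of the duplicated Trav stretch divided the mice along another line than the labels. The d-copies, 11 members in all, held 17.5 to 21.5% of Trav member counts in WT 3 and 18.3 to 19.6% in WT 4 over the 4 times. In the mouse labelled WT 1 they held 6.91 to 11.4%, and in the 3 Aim2-/- mice 7.13 to 11.3%. The 8 libraries of WT 3 and WT 4 thus lay above the other 16. At 0 h the difference between genotypes was -7.84 percentage points (exact permutation p = 0.4, n = 3 per group) and -12.1 without the mouse labelled WT 1. The n-copies, 12 members, held 10.8 to 17.2% in every library, and their ranges overlapped between all 6 mice.

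Within the copy sets of the sequences shown above, 2 patterns appeared when the 4 libraries of a mouse were summed. In the Trav7-4 set, Trav7n-4 took 51.5, 49.4 and 52.0% of the counts in WT 1, 3 and 4 and 29.4, 20 and 31.8% in Aim2-/- 1, 2 and 4, so this share followed the labels. Trav7-4 took 28.1 to 37.0% in WT and 56.1 to 68.8% in Aim2-/- mice. Trav10n took 24.3, 40.2 and 39.7% of the Trav10 set in WT and 18.2, 18.4 and 12.9% in Aim2-/- mice. Trav10 took 72.1% in the mouse labelled WT 1, 49.5 and 48.4% in WT 3 and WT 4, and 73.3 to 82.6% in Aim2-/- mice. In this set the mouse labelled WT 1 thus lay nearer to the Aim2-/- mice than to WT 3 and WT 4.

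In the Trav14-3 set the mouse labelled WT 1 stood with the Aim2-/- mice. Trav14n-3 took 42.3% there and 39.2 to 45.2% in Aim2-/- mice, against 18.6 and 20.9% in WT 3 and WT 4. Trav14d-3-dv8 was the reverse, with 51.5 and 46.6% in WT 3 and WT 4, 27.0% in the mouse labelled WT 1 and 21.6 to 29.1% in Aim2-/- mice. Trav14-3 itself held 27.7 to 33.5% in all 6 mice. The 3 genes differ from one another at 5 to 9 of 280 bases of the last coding exon. How reads matching more than 1 copy were counted is not given in the sources used here.

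**Figure D5:**
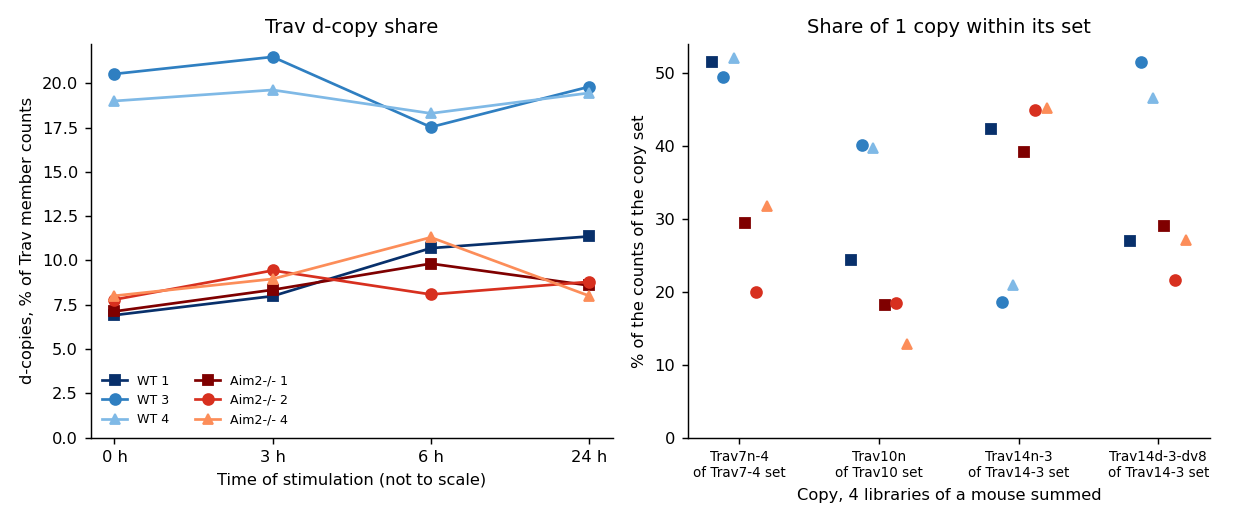
Left, share (%) of Trav member counts in d-copies by time (x axis, not to scale), 1 line per mouse. Right, share (%) of 1 copy within the counts of its copy set, with the 4 libraries of a mouse summed and 1 point per mouse. WT 3 and WT 4 lie at 17.5 to 21.5% on the left and the other 4 mice at 6.91 to 11.4%, while on the right Trav7n-4 separates the 3 mice labelled WT (49.4 to 52.0%) from the 3 labelled Aim2-/- (20 to 31.8%).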

How the data were processed

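mRNA of splenic CD4+ T cells was profiled in 24 libraries (3 mice per genotype, each at 0, 3, 6 and 24 h). Per the labels, stranded TruSeq libraries were made. The authors deposited raw counts per gene, without normalization, and the submitters' processing notes name STAR, edgeR, DESeq2 and GRCm38. Whether counting used the read strand, or how reads matching several genes were treated, is not given in the sources used here. Symbols, exons and sequences came from GENCODE M21 of GRCm38, which matched 54409 of 54446 identifiers. The members and gene lists were chosen with earlier results of these data known.

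The main test was edgeR (4.0.16) quasi-likelihood F, two-sided, fitted to the 24 libraries together (1 mean for each of 8 groups) with TMM factors and the filterByExpr filter at a minimum count of 10. It kept 15325 genes at a biological coefficient of variation of 18.6%. P-values were adjusted over all genes by Benjamini-Hochberg, and a gene is called at an adjusted p under 0.05. Stimulation was the mean over both genotypes, and genotype was Aim2-/- minus WT. Families were summed rows, fitted with the library sizes and factors of the gene table. Usage fits set library sizes to summed Trav or Trbv counts. Their adjustment also ran over all genes, so it was lenient where many genes were called. Single values were compared over mice by exact sign-flip tests (6 pairs) or exact permutation tests (3 against 3), two-sided, with Benjamini-Hochberg adjustment over 36 tests. The fits were tested on simulated data.

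The labels give the same mouse at each time. Deviations from group means of 2 libraries of 1 mouse correlated at 0.139 to 0.567 (36 pairs), and those of different mice at -0.432 to 0.0742 (72 pairs), so mouse pairs the times. Libraries that share a number across genotypes correlated at -0.165 to 0.268 and were not treated as pairs. P-values of the exact tests and of the fit of mouse sums measure the spread between these mice. The main fit had no mouse term and took the 4 libraries of a mouse as independent, so its p-values leave this pairing out.

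Named genes were the 8 Trav and 8 Trbv members most used at 0 h, each member called between genotypes, the 4 largest rises and falls per stimulation time among called members of at least 1 CPM, chains of innate-like T cells, Trbv31, Trav7n-4 and Trav10n with their copies, the pseudogenes, the rows next to the threshold, constant, CD3 and recombination genes, and Aim2. Trbv2, Trbv5, Trbv17, Trbv21, Trav3-4 and Trav14-2 fall outside this rule and were named after their values were seen. Alternatives were RLE factors, library totals, usage scaling, DESeq2 (1.42.0), limma-voom (limma 3.58.1), no count filter, replicate blocks, and removal of each library or mouse. CPM uses TMM-scaled totals.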

Additional observations from a re-analysis of the deposited data

Results flagged for a closer look

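In the following results all 3 WT mice moved one way and all 3 Aim2-/- mice the opposite way between 0 h and a later time. These differences were noticed in this way and were not tested on that scale. The 3 WT mice include the mouse labelled WT 1. The edgeR interaction test called none of the genes. For summed Trav CPM at 6 h minus 0 h, the change was 14.4 CPM in WT (2.44 to 21.2) and -18.8 CPM in Aim2-/- mice (-22.6 to -11.4), a difference of -33.2 CPM. For Trav7-1 the difference between the changes of Aim2-/- and WT was -0.845 CPM at 3 h and -1.08 CPM at 6 h. For Trav7-6 it was -0.863 CPM at 6 h, for Trbv3 -7.26 CPM and for Trbv31 -5.82 CPM.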

How the results depend on the processing

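Counts of called members are given for alternatives that moved them by more than 1.5 times. Except for usage scaling, the shares of all genes called under an alternative are not given in this text, so these counts describe the members only. Stimulation at 3 h gave 12, against 3 with usage scaling, 7 without a count filter and 21 with mouse as a replicate block. At 6 h the count of 12 became 19 with the block, and at 24 h 42 became 16 with usage scaling. Between genotypes at 0 h, 1 became 0 with library totals, with usage scaling, with limma-voom and without a filter, and 4 with the number block. At 3 h, 1 became 0 with usage scaling, 2 with DESeq2, 2 without a filter and 8 with the number block. At 6 h, 8 became 2 with usage scaling and 29 with the number block. At 24 h, 0 became 2 with DESeq2, 2 without a filter and 9 with the number block. In mouse sums 0 became 2 with usage scaling, 6 with DESeq2, 3 without a filter and 7 with the number block. The interaction at 6 h went from 0 to 1 with the mouse block. Mouse numbers are shared across genotypes by label alone, so the number block describes no paired design.

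For families, stimulation at 3 h went from 6 to 3 (library totals, usage scaling) and 13 (mouse block), and at 24 h from 26 to 12 (usage scaling). Genotype at 0 h went from 0 to 3, at 3 h from 0 to 5 and in sums from 0 to 4 with the number block. At 6 h it went from 3 to 0 (usage scaling), 6 (DESeq2), 7 (limma-voom), 8 (no filter) and 25 (number block), and at 24 h from 0 to 1 (DESeq2, no filter) and 8 (number block).

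Leaving out 1 library or 1 mouse gave 7 to 14 members at 3 h, 11 to 22 at 6 h and 31 to 45 at 24 h of stimulation, and between genotypes 0 to 3 at 0 h, 0 to 3 at 3 h, 1 to 24 at 6 h, 0 to 7 at 24 h and 0 to 16 in sums. Families ranged over 3 to 10, 8 to 14 and 25 to 29 for stimulation, and over 0 to 1, 0 to 0, 0 to 18, 0 to 7 and 0 to 9 for genotype.

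Alternatives chosen after seeing the data left out the mouse labelled WT 1. Of the genes without overlap between genotypes, Trav genes higher in Aim2-/- cells went from 6 to 22 (0 h), 2 to 14 (3 h), 0 to 3 (6 h) and 1 to 7 (24 h), and those lower from 4 to 14, 10 to 17, 18 to 21 and 8 to 18. Trbv genes went from 0 to 1 higher and 2 to 6 lower at 0 h and from 2 to 4 lower at 3 h. With 2 WT mice fewer values have to be exceeded. Members called relative to summed Trav counts went from 2 to 0 at 6 h and from 2 to 6 in sums.

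Directions turned in few cases. The summed Trav change at 6 h was -2.23 CPM and became 2.46 with library totals (leaving out a mouse, -6.92 to 1.84). With families in place of genes, the effective number of Trav genes between genotypes at 0 h became 0.34 and that of Trbv genes at 24 h 0.037. The 24 h change of Trbv3 became -0.052 (RLE), -0.052 (DESeq2), -0.011 (limma-voom), -0.032 (no filter) and -0.0017 (mouse block), and ranged from -0.11 to 0.10 without single libraries. Leaving out a mouse also turned the summed Trav difference between genotypes at 0 h (-2.24 to 7.51 CPM), the Trav pseudogene share at 3 h (-0.029 to 0.287 points), at 24 h (-0.119 to 0.185) and between genotypes at 0 h (-0.545 to 0.164), the effective number of Trbv genes at 6 h (-0.056 to 0.104) and the Trav n-copy share at 3 h (-1.08 to 0.092 points). The cause was not tested. Trbv13-2 at rest was 20.7% by counts, and 5 of the 8 first Trav genes remained by unique windows, an alternative chosen after seeing the data in place of windows over the genome, which was not run. Low Trav counts (547 per library at the least) limit single Trav genes most.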
